A study of Mus musculus with 8 samples.

Results

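The 45 genes described here encode the proteasome and its regulators. They were taken by gene symbol, as every row of a count table of 53647 genes whose name is Psma, Psmb, Psmc, Psmd, Psme or Psmf followed by a number. That rule uses names only. The libraries came from C57BL/6 mouse leukemia macrophages, read as polyA RNA. In 4 of them the macrophages had been cultured alone (Mac), and in the other 4 they had been cultured with MSC, the mesenchymal stromal cells of the study, and are called MSC-educated (E-Mac). The growth protocol names 12 h of culture in vitro for the study, in a sentence that covers both groups. In both groups the target cells were sorted before RNA extraction. Nothing in the labels ties a library to its own animal or culture; each p-value therefore speaks of the spread among these 8 libraries, and that spread may be technical.

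The proteasome is the cell's main protease for ubiquitin-tagged proteins. Its barrel, the 20S core, has outer rings of alpha subunits that gate the entrance and inner rings of beta subunits that carry the cutting sites, and the 19S particle on its ends recognises, unfolds and feeds in the substrate. Interferon induces an alternative set, the immunoproteasome, in which Psmb8, Psmb9 and Psmb10 take the places of the catalytic subunits Psmb5, Psmb6 and Psmb7 and the Psme1 and Psme2 ring (PA28) can cap the barrel. This form is known for supplying peptides to MHC class I in macrophages and other immune cells.

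Of the 45 genes, 44 had enough counts to be tested, 41 were higher in E-Mac, 0 were lower and 3 did not pass the test (Psma7, Psma8 and Psmd5). The test was edgeR's quasi-likelihood test with Benjamini-Hochberg adjustment over the 13412 genes with enough counts, called at an adjusted p under 0.05. By the same rule 29.5% of all tested genes were called higher and 28.8% lower. The median log2 fold change of the members was 0.77, against -0.003 over all genes tested. In 40 members all 4 E-Mac libraries lay above all 4 Mac libraries, which was the case for 26.7% of all tested genes. Scaling by library size alone moved the median over all genes to -0.15 and the share of all calls that were higher from 50.6% to 37.4%, and left 40 members higher. The members took up 0.340 to 0.352% of all counts in the Mac libraries and 0.500 to 0.606% in the E-Mac libraries. These groups of values did not overlap.

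**Figure D1:**
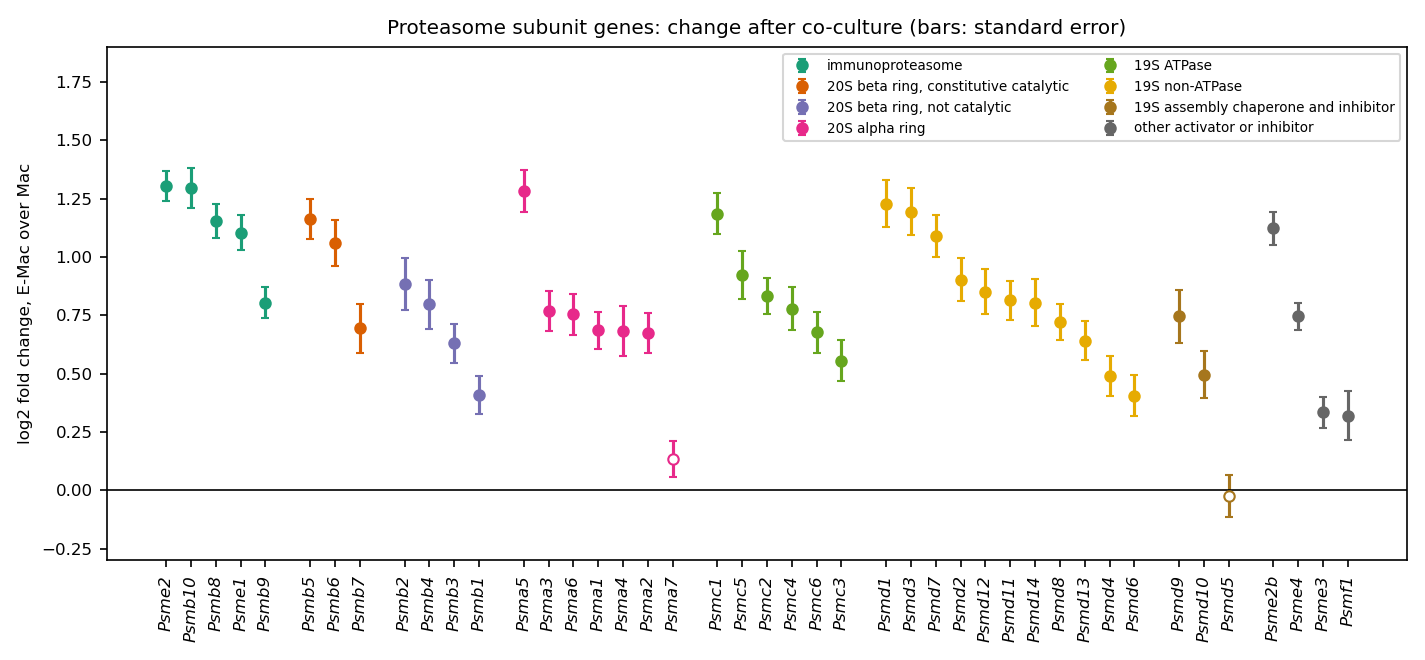
Log2 fold change (vertical axis, E-Mac over Mac) of the tested subunit genes by role, with bars for the standard error derived from edgeR's test statistic. Filled points passed the test and open points did not. All points but those of Psma7 and Psmd5 are filled, and Psma8 and Psmb11, which were near 0 counts, are not drawn.

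The Mac libraries held 11646025 to 15556935 counts, the E-Mac libraries 13377046 to 15740846. Levels are in CPM, counts per 1000000 after TMM scaling. The label of the cells was checked against lists of markers. Of 16 macrophage core markers 15 were expressed highly enough to test, 8 of them higher in E-Mac and 2 lower, and Vsig4 was at 0 in all libraries. Their summed level was 13540 to 14650 CPM for Mac libraries and 9583 to 13010 CPM for E-Mac libraries; without Lyz2, the highest of them, it ran the other way, at 2840 to 3339 and 4563 to 5944 CPM. Granulocyte markers were also abundant: 12 of 18 were lower in E-Mac and 2 higher, none was at 0 in a whole group, and their sum was 34310 to 38100 CPM in Mac and 11820 to 19080 CPM in E-Mac. Of 16 stromal markers 10 were tested, 7 higher and 1 lower. Their sum was 3198 to 3792 CPM for Mac libraries and 876.6 to 1051 CPM for E-Mac libraries; without Fn1, the highest, it ran the other way, at 5.16 to 8.23 CPM in Mac, where Col3a1, Pdgfra and Lum were at 0, and 42.5 to 396.5 CPM in E-Mac. The dendritic list summed to 137.5 to 148.9 CPM in Mac libraries and 455.3 to 575.4 CPM in E-Mac libraries (3 of 8 tested genes higher, 3 lower), but without Bst2, the highest, to 64.2 to 68.9 and 33.9 to 61.2 CPM. The erythroid and megakaryocyte list summed to 101.3 to 116.0 and 179.1 to 273.6 CPM (3 of 6 higher, 3 lower), but without Pf4, the highest, to 100.8 to 115.2 and 105.3 to 114.6 CPM, which overlap. The B cell list summed to 15.7 to 17.8 and 13.6 to 27.1 CPM (4 of 5 higher, 1 lower), and the T and NK cell list to 15.9 to 21.1 and 3.92 to 5.46 CPM (0 of 4 higher, 3 lower). In bulk samples, fewer cells of a type and less RNA per cell cannot be told apart, and the part of these marker changes in the results on proteasome genes was not tested.

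The start regions of the genes are shown first because the immune and the constitutive subunits are known to be controlled by different factors: STAT and IRF proteins and NLRC5 for the former, and NRF1 (the product of Nfe2l1) for the latter. RefSeq sequences on GRCm38.p6 (mm10), 250 bases before to 50 after each start, were found for 38 of the 45 genes in 41 windows; Psma8, Psmb1, Psmb2, Psmb7, Psmc3, Psmd3 and Psmd7 had no entry. Each motif was searched on both strands. The core of the interferon-stimulated response element, GAAA and again GAAA after 2 bases of any kind, was found in 4 member windows (Psme1, Psmb3, Psmd4 and Psmd9), 9.76%, against 3.44% of all 32851 windows. The STAT motif TTCNNNGAA was found in the windows of Psmb8 and Psmd2, 4.88% against 8.3%. The antioxidant response element TGACNNNGC, the kind NRF1 and NRF2 bind, was found in 6 member windows (Psmb5, Psmb6, Psmc6, Psmd12, Psmd9 and Psme4), 14.6% against 12.4%, and in none of the 6 windows of immunoproteasome genes. The ETS motif CCGGAAG was found in 13 member windows, 31.7% against 8.86%. Of the 18 windows of 19S genes 10 held it, and of the 6 windows of immunoproteasome genes 0 did. CCAAT was found in 14 member windows, 34.1% against 37.4%. A match describes letters only and is neither a site nor a cause.

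For the immune subunits, the match in Psme1 (chr14:55578493-55578522, plus strand) is given, which starts 9 bases after the RefSeq start. The 250 bases before the RefSeq start of Psmb8 (chr17:34197945-34198194, plus strand) follow. So do the 225 bases from the start of Psmb9 to that of the divergent Tap1 (chr17:34187331-34187555, minus strand, read in the direction of Psmb9). The capitals mark letters that match the core of the interferon-stimulated element in Psme1, read on its other strand, and the STAT motif in Psmb8. In Psmb9 they mark the letters CCAAT, read on the other strand.
Psme1: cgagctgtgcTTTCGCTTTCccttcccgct
Psmb8: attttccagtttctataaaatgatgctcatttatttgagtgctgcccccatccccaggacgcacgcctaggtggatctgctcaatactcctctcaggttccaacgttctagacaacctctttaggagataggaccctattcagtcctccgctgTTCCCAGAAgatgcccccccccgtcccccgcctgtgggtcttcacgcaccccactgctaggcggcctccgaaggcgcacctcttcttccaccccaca
Psmb9: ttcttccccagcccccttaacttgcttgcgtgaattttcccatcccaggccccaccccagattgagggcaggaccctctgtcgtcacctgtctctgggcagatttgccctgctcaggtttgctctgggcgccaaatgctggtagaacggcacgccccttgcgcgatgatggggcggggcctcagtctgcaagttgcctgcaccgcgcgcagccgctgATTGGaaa

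For the constitutive subunits, the 250 bases before the starts of the catalytic genes Psmb5 (chr14:54617996-54618245, minus strand) and Psmb6 (chr11:70525107-70525356, plus strand) are given. Those of the 19S genes Psmd12 (chr11:107479278-107479527, plus strand) and Psmc6 (chr14:45329574-45329823, plus strand) follow. All 4 hold letters that match the antioxidant response element. The capitals mark those letters in all 4 and the ETS motif in Psmd12 and Psmc6, each on whichever strand it was found.
Psmb5: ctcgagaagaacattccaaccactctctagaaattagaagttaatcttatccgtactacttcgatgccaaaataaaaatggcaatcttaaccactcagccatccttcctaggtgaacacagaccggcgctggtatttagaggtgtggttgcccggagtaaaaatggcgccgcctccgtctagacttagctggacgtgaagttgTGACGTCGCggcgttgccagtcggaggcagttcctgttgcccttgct
Psmb6: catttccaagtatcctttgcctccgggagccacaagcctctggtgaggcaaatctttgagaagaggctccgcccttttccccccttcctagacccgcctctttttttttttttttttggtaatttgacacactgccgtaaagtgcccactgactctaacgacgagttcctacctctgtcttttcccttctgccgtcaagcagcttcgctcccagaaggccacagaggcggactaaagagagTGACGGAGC
Psmd12: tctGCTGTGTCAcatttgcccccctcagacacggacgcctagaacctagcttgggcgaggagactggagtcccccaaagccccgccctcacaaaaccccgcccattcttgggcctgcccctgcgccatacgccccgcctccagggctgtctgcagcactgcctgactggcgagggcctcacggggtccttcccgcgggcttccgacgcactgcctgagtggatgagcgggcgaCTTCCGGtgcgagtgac
Psmc6: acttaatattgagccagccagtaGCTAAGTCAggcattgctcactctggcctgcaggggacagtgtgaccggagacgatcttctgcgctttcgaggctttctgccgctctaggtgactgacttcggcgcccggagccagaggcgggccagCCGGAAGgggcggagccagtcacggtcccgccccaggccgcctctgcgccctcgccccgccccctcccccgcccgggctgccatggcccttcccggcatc

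All 5 immunoproteasome genes were higher in E-Mac, with a median log2 fold change of 1.15. Their summed level was 495.7, 534.7, 528.8 and 556.3 CPM in Mac 1 to 4 and 1104, 1192, 1241 and 1108 CPM in E-Mac 1 to 4. The means were 528.9 ± 25.1 and 1161 ± 66.9 CPM (SD, n = 4 each), a 2.20-fold difference, and the lowest E-Mac library was above the highest Mac library.

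Psmb8, the inducible chymotrypsin-like subunit (chr17:34197721-34201454, mm10), was at 107.0, 115.9, 116.4 and 122.1 CPM in Mac and 238.4, 264.1, 280.5 and 244.1 CPM in E-Mac. Every E-Mac library was above every Mac library, and the log2 fold change was 1.15 ± 0.07 (SE, adjusted p = 2.32e-08). Psmb9, the inducible subunit that takes the place of the caspase-like Psmb6, lies on the same chromosome as Psmb8 (chr17:34181987-34187764). It was at 90.5, 92.4, 89.3 and 89.3 CPM in Mac and 143.7, 167.3, 163.8 and 156.3 CPM in E-Mac. The groups did not overlap, and the change was the smallest of the 5, a log2 fold change of 0.80 ± 0.07 (adjusted p = 2.61e-07). Tap1, the peptide transporter gene that starts from the stretch shared with Psmb9, rose from 272.4 ± 6.74 to 665.2 ± 28.1 CPM, a log2 fold change of 1.29 ± 0.06 (adjusted p = 2.34e-09); the difference between the changes of Tap1 and Psmb9 was not tested, and 5.79% of the exonic length of Psmb9 overlapped Tap1.

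Psmb10, the inducible trypsin-like subunit (chr8:105935735-105938444), was at 75.8, 75.6, 81.7 and 89.9 CPM in Mac and 194.9, 195.4, 224.9 and 178.0 CPM in E-Mac. The groups did not overlap, and the log2 fold change was 1.30 ± 0.08 (adjusted p = 3.25e-08). Of the 4 libraries of E-Mac, the third was highest for Psmb8 and Psmb10.

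Psme1, the alpha chain of the PA28 cap (chr14:55578123-55581529), was at 141.0, 164.9, 158.2 and 167.7 CPM in Mac and 313.6, 356.2, 353.5 and 335.4 CPM in E-Mac. Both the level and the rise were clear of the spread in each group (log2 fold change 1.10 ± 0.07, adjusted p = 4.45e-08). Its partner Psme2, the beta chain (chr14:55587441-55591113), was at 81.5, 85.8, 83.2 and 87.3 CPM in Mac and 213.0, 209.5, 217.9 and 194.4 CPM in E-Mac. Its log2 fold change, 1.31 ± 0.06 (adjusted p = 1.83e-09), was the largest of the tested members, though within its standard error of those of Psmb10 and Psma5. Psme2b, a single-exon copy on chromosome 11, shares sequence with it: 59.3% of the 50-base windows of Psme2 were found in other annotated genes, and 69.3% of those of Psme2b. How reads were split between the copies is uncertain, so their sum is given too: 126.0 ± 3.26 CPM in Mac and 299.4 ± 12.5 CPM in E-Mac, a 2.38-fold difference. Psme2b was 33.0 ± 2.0% of that sum in Mac and 30.3 ± 0.777% in E-Mac.

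**Figure D2:**
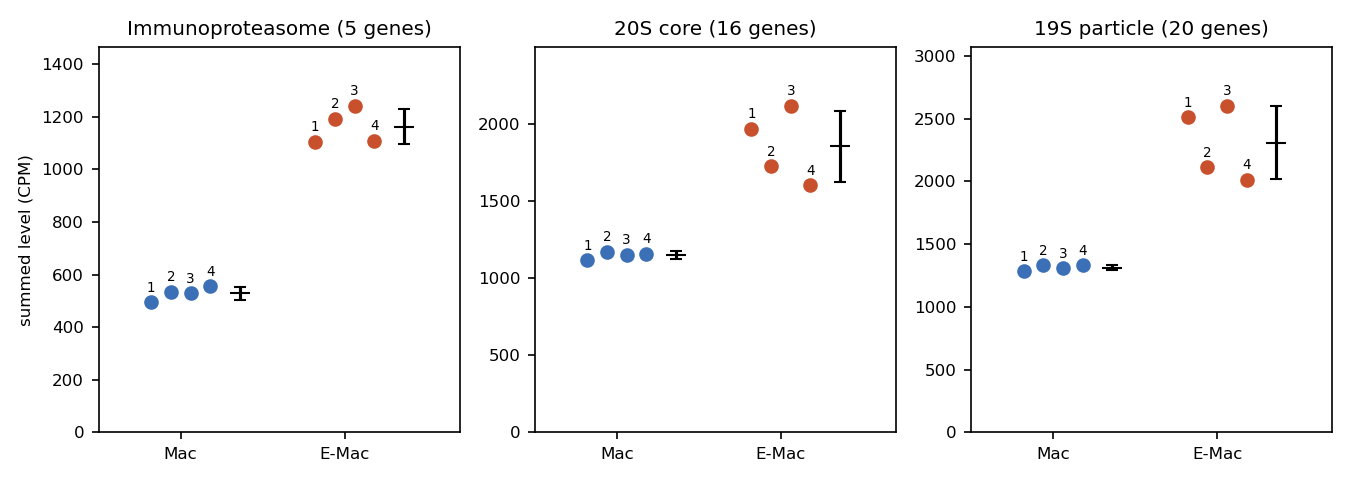
Summed level in CPM (vertical axes, each starting at 0) of the immunoproteasome, 20S and 19S genes in each library, numbered, with group means and SD. In all 3 sets the E-Mac libraries lie above the Mac libraries; for 20S and 19S, E-Mac 1 and 3 lie above E-Mac 2 and 4.

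Of the 16 genes of the 20S core, 15 were tested and 13 were higher in E-Mac, with a median log2 fold change of 0.70. The summed level was 1115 to 1171 CPM in Mac and 1969, 1726, 2117 and 1602 CPM in E-Mac 1 to 4, a 1.61-fold difference of the means. Among the E-Mac libraries, E-Mac 3 had the highest value for 14 of the 15 tested genes. The 2 libraries with the lower sums, E-Mac 2 and 4, were also those with the higher granulocyte marker sums, 19080 and 16590 CPM against 11820 and 12540 CPM in E-Mac 1 and 3. Without E-Mac 2 and 4, all 41 called members kept their call and direction. As these libraries held the lower 20S and 19S sums, leaving them out raises the E-Mac means of those sets. It is therefore no check on the difference in granulocyte markers, whose part was not tested.

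The constitutive catalytic subunits rose as well. Psmb5, the chymotrypsin-like subunit that Psmb8 replaces, was at 30.2, 27.0, 31.0 and 31.6 CPM in Mac and 68.7, 66.2, 73.8 and 60.1 CPM in E-Mac. The groups did not overlap, and the log2 fold change was 1.16 ± 0.08 (adjusted p = 8.87e-08). Psmb6, the caspase-like subunit that Psmb9 replaces, was at 57.0, 61.0, 56.6 and 56.8 CPM in Mac and 127.4, 115.8, 141.2 and 97.8 CPM in E-Mac. E-Mac 4 was the lowest of its group and still above all Mac libraries (log2 fold change 1.06 ± 0.10, adjusted p = 8.6e-07). Psmb7, the trypsin-like subunit that Psmb10 replaces, was at 39.1, 44.7, 45.6 and 42.1 CPM in Mac and 81.0, 59.5, 76.4 and 60.9 CPM in E-Mac. Its rise was smaller, a log2 fold change of 0.70 ± 0.10 (adjusted p = 8.05e-05), with no overlap. Of the 50-base windows of Psmb5 57.1%, and of Psmb7 28.1%, were found in other annotated genes, so their counts depend on how shared reads were treated.

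The ratio of each inducible subunit to the one it replaces does not depend on scaling. The count ratio of Psmb8 to Psmb5 was 3.54, 4.30, 3.76 and 3.86 in Mac and 3.47, 3.99, 3.80 and 4.06 in E-Mac. The groups overlapped, and the difference of the mean log2 ratio was -0.01 (exact two-sided permutation test, p = 0.886, adjusted p = 0.886 over the 3 pairs). The ratio of Psmb9 to Psmb6 was 1.59, 1.51, 1.58 and 1.57 in Mac and 1.13, 1.45, 1.16 and 1.597 in E-Mac. E-Mac 4 lay at the level of the Mac libraries and the other E-Mac libraries below it (log2 difference -0.25, exact permutation p = 0.143, adjusted p = 0.214); leaving out each library in turn gave -0.34 to -0.17, with adjusted p from 0.0429, without E-Mac 4, to 0.386. The ratio of Psmb10 to Psmb7 was 1.94, 1.69, 1.79 and 2.13 in Mac and 2.41, 3.28, 2.94 and 2.92 in E-Mac. All E-Mac libraries were above all Mac libraries, a 1.53-fold difference on the mean log2 scale. Its exact permutation p of 0.0286 is the smallest that 4 against 4 libraries can give, and after adjustment over the 3 pairs it was 0.0857, which missed the threshold. Leaving out each library in turn gave adjusted p from 0.0429 to 0.171. The lowest was without E-Mac 4, where the log2 difference was 0.60 against 0.61 and the unadjusted p was 0.0286 for this pair and for Psmb9 to Psmb6. That p is also the smallest that 4 against 3 libraries can give, and the adjusted value fell because both pairs reached it. Per kilobase of exon, the inducible member made up 50.6 ± 2.03% of the Psmb8 and Psmb5 pair in Mac and 50.4 ± 1.76% in E-Mac. It was 44.4 ± 0.531% and 40.3 ± 4.07% of the Psmb9 and Psmb6 pair, and 79.0 ± 1.67% and 85.2 ± 1.67% of the Psmb10 and Psmb7 pair. These shares depend on annotated exon lengths, 3381 bases for Psmb8, 899 for Psmb5, 1705 for Psmb10 and 3421 for Psmb7. The longest coding transcripts of these genes held 1579, 850, 1262 and 1111 windows of 50 bases. The shares can be compared between the groups but do not give the make-up of a pair.

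**Figure D3:**
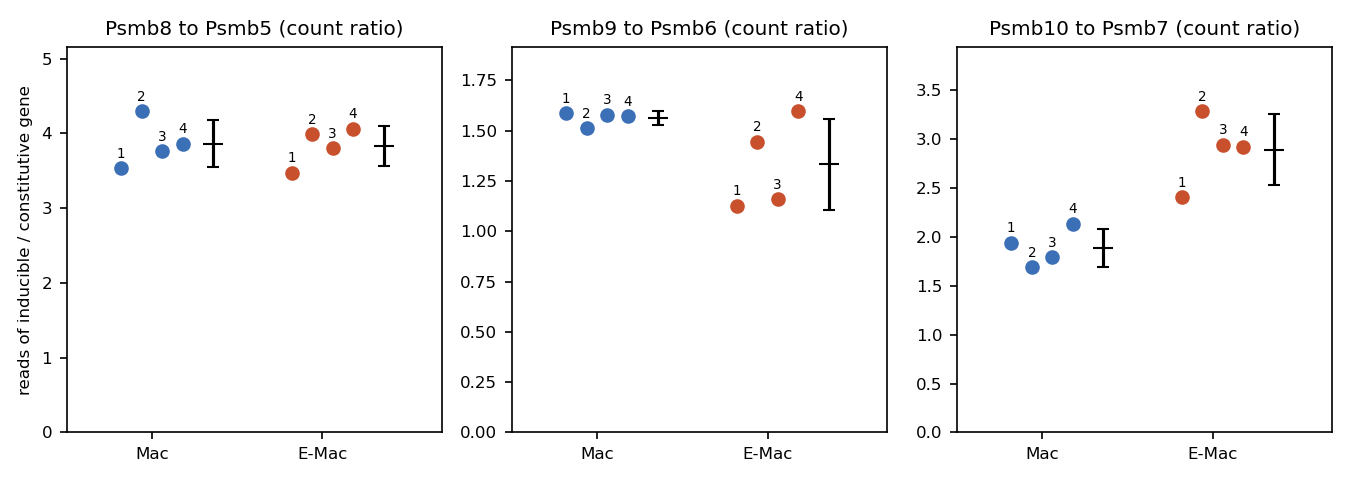
Count ratio of each inducible catalytic subunit to the constitutive subunit it replaces (vertical axis) in each library, with group means and SD. Only the ratio of Psmb10 to Psmb7 separates the groups, with Mac libraries at 1.69 to 2.13 and E-Mac libraries at 2.41 to 3.28.

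The beta subunits without a catalytic site also rose. Psmb1 changed least, from 114.2 ± 5.35 to 151.8 ± 17.1 CPM (log2 fold change 0.41 ± 0.08, adjusted p = 0.000801), and Psmb2 changed most, from 59.8 ± 6.37 to 110.3 ± 17.6 CPM (0.88 ± 0.11). Psmb3 and Psmb4 lay between, at 0.63 ± 0.08 and 0.80 ± 0.10, and none of the 4 overlapped between the groups. Of the 50-base windows of Psmb3 55.8% were found in other annotated genes. Psmb11, the thymus-specific catalytic subunit, had 1 count, in E-Mac 4, and was not tested.

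Of the alpha subunits, which form the gate, Psma5 changed most: 33.7, 38.8, 37.8 and 42.4 CPM in Mac and 99.5, 84.9, 102.4 and 85.2 CPM in E-Mac. The lowest E-Mac library was above the highest Mac library by more than the range of either group, and the log2 fold change was 1.28 ± 0.09 (adjusted p = 6.48e-08). Of its 50-base windows 55.4% occur in other annotated genes. Psma1, Psma2, Psma3, Psma4 and Psma6 rose by 0.67 to 0.77 on the log2 scale with no overlap between the groups; 31.5% of the windows of Psma4 and 22.0% of those of Psma3 occur in other annotated genes.

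Psma7, also an alpha ring subunit, was at 154.0, 154.9, 146.5 and 166.6 CPM in Mac and 179.1, 161.5, 188.4 and 153.6 CPM in E-Mac. The groups overlapped, with E-Mac 1 and 3 above all Mac libraries and E-Mac 2 and 4 within their range. Its log2 fold change was 0.13 ± 0.08 (adjusted p = 0.150), the 95% interval of the fold was 0.979 to 1.23, and with library size alone the change was -0.01. Without E-Mac 4 it was 0.19 (adjusted p = 0.036) and without E-Mac 2 and 4 it was 0.25 (adjusted p = 0.000928). Psma7 was lowest in these libraries among E-Mac, so leaving them out must raise its change. These p-values are therefore no evidence of a rise. Psma8, the testis form of this subunit, averaged 0.520 ± 0.450 CPM in Mac and 0.556 ± 0.290 CPM in E-Mac, too low for a difference to be detectable at this depth (adjusted p = 0.955).

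Of the 20 genes of the 19S particle, 19 were higher in E-Mac and Psmd5 did not pass the test, with a median log2 fold change of 0.79. Summed levels were 1285 to 1330 CPM in Mac and 2509, 2114, 2602 and 2012 CPM in E-Mac 1 to 4, a 1.76-fold difference of the means. The highest E-Mac value was in E-Mac 3 for 13 genes and in E-Mac 1 for the other 7.

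The 6 ATPases, Psmc1 to Psmc6, form the ring that unfolds substrates, and all rose with no overlap. Psmc1 changed most: 77.1, 75.6, 80.0 and 79.9 CPM in Mac against 201.5, 162.0, 195.1 and 153.0 CPM in E-Mac. Its Mac values were within a few CPM of each other and its E-Mac values more spread, with E-Mac 1 and 3 high (log2 fold change 1.19 ± 0.09, adjusted p = 1.22e-07). Psmc3 changed least (0.56 ± 0.09, from 91.9 ± 4.49 to 135.1 ± 17.6 CPM), and Psmc5 was second to Psmc1 (0.92 ± 0.10). Psmc2, Psmc4 and Psmc6 rose by 0.83 ± 0.08, 0.78 ± 0.09 and 0.68 ± 0.09.

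All 11 non-ATPase subunits rose with no overlap, by 0.41 to 1.23 on the log2 scale. Psmd1, a large scaffold subunit of the base, was at 65.3, 56.1, 64.6 and 60.7 CPM in Mac and 167.9, 131.8, 157.9 and 121.0 CPM in E-Mac. The lowest E-Mac library was well clear of the highest Mac library (1.23 ± 0.10, adjusted p = 2.83e-07). Psmd3, a lid subunit, was at 69.1, 76.7, 75.01 and 78.5 CPM in Mac and 197.4, 154.0, 189.7 and 143.8 CPM in E-Mac (1.19 ± 0.10, adjusted p = 3.24e-07). Psmd7, the inactive partner of the lid's deubiquitinase, rose from 43.9 ± 2.01 to 93.3 ± 11.8 CPM (1.09 ± 0.09). Psmd14, the deubiquitinase itself, rose from 58.4 ± 1.21 to 102.0 ± 16.5 CPM (0.80 ± 0.10). The other scaffold of the base, Psmd2, was at 140.2 to 147.7 CPM in Mac and 229.0 to 302.8 CPM in E-Mac (0.90 ± 0.09), and 26.4% of its 50-base windows occur in other annotated genes. Of the other subunits, Psmd12 rose by 0.85 ± 0.10, Psmd11 by 0.81 ± 0.08, Psmd8 by 0.72 ± 0.08 and Psmd13 by 0.64 ± 0.08. The ubiquitin receptor Psmd4 rose by 0.49 ± 0.08 and the lid subunit Psmd6 by 0.41 ± 0.09, the smallest of this group (adjusted p = 0.00124).

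Of the 3 chaperones that act in assembly of the base, 2 rose. Psmd9 rose from 14.3 ± 0.726 to 24.0 ± 3.42 CPM (0.75 ± 0.11); 25.5% of its annotated exonic length overlaps the gene Gm26745. Psmd10, also known as gankyrin, rose from 20.6 ± 1.11 to 29.0 ± 3.14 CPM (0.50 ± 0.10). Psmd5, which holds back the assembly of base and core, was at 32.4, 30.9, 31.3 and 35.3 CPM in Mac and 34.5, 29.2, 34.4 and 29.8 CPM in E-Mac. These values were mixed between the groups, and the log2 fold change was -0.02 ± 0.09 (adjusted p = 0.847) with a 95% interval of the fold of 0.86 to 1.13.

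The remaining regulators were also higher. Psme4 (PA200), a cap that opens the barrel without ATP, rose from 127.0 ± 3.0 to 212.9 ± 6.41 CPM (0.75 ± 0.06, adjusted p = 2.06e-07), and Psme3, the nuclear PA28 gamma cap, from 94.3 ± 2.37 to 119.0 ± 8.09 CPM (0.34 ± 0.07, adjusted p = 0.000735). Psme2b, the copy of Psme2, had a log2 fold change of 1.12 ± 0.07. Psmf1, which encodes the inhibitor PI31, was at 22.8, 28.1, 25.8 and 26.3 CPM in Mac and 36.2, 31.7, 33.3 and 27.4 CPM in E-Mac. It was the only called member whose groups overlapped, since E-Mac 4 lay below Mac 2 (0.32 ± 0.10, adjusted p = 0.0176). Its call was lost with upper-quartile scaling (0.22, adjusted p = 0.0694), with library size alone (0.18, adjusted p = 0.15) and without Mac 1 (0.27, adjusted p = 0.0614).

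Levels are compared between genes only per kilobase of exon in the GENCODE M21 annotation, so the order of genes depends on annotated exon lengths. These were 1234 bases for Psma6, 2209 for Psme1 and 3071 for Psma7. The longest coding transcripts of these genes were closer in length, with 993, 1063 and 1108 windows of the size used above. The ranks and medians below therefore hold for this measure only and do not give the order of transcript levels. In CPM per kilobase, Psma6 was highest in Mac, at 76.0 ± 2.83, and Psme1 next, at 71.5 ± 5.44. In E-Mac Psme1 was highest, at 153.8 ± 8.91, followed by Psma6 at 128.1 ± 16.8, Psme2 at 118.3 ± 5.74 and Psmb10 at 116.3 ± 11.4, the last 3 within their spread of each other. The median level of the 5 immune genes was 47.4 CPM per kilobase in Mac and 116.3 in E-Mac, that of the 20S genes 30.9 and 61.1, and that of the 19S genes 20.1 and 35.1. Apart from Psma8 and Psmb11, the lowest were Psmd9 at 1.97 and 3.31, whose annotated model is long, Psmf1 at 3.998 and 4.99, and Psmd5 at 4.49 and 4.42.

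**Figure D4:**
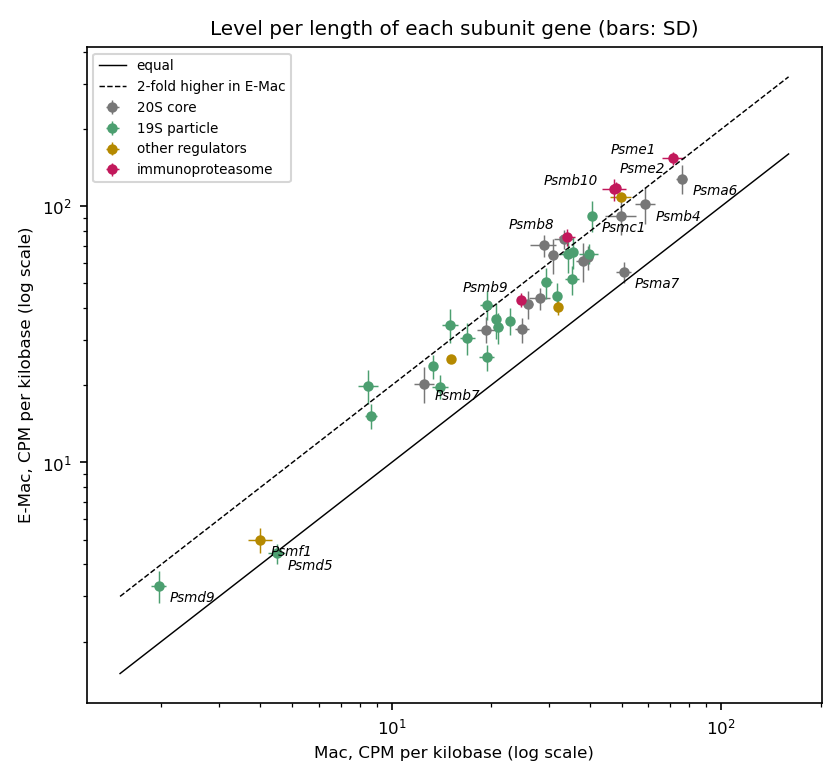
Level per kilobase of exon in Mac (horizontal, log scale) against E-Mac (vertical, log scale), mean of 4 libraries with SD, by set of genes; the solid line marks equal levels and the dashed line a doubling. The 5 immunoproteasome genes lie near or above the dashed line apart from Psmb9, and Psma7 and Psmd5 lie near the solid line; Psma8 and Psmb11 are not drawn.

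Genes that assemble, feed or control the proteasome were read from lists drawn up by known role. The counts below stand against 29.5% of all tested genes called higher and 28.8% called lower. Whether any list departs from these shares was not tested. Of 5 assembly factors of the core, 2 were higher and 0 lower: Pomp, the chaperone that completes the ring, at a log2 fold change of 0.44 ± 0.11 (adjusted p = 0.00291), and Psmg1, at 0.80 ± 0.15. Of 18 other subunits, receptors and enzymes of the proteasome, 7 were higher and 3 lower, with a median of 0.09, against the member median of 0.77. Adrm1, a ubiquitin receptor of the 19S particle, rose by 0.64 ± 0.09, Usp14, a deubiquitinase, by 0.66 ± 0.08, Txnl1, a thioredoxin bound to the 19S particle, by 0.74 ± 0.10 and Zfand2a, an arsenite-inducible factor, by 1.34 ± 0.24. Zfand5 (-0.48 ± 0.10), Akirin2 (-0.44 ± 0.08), which brings proteasomes into the nucleus, and Ubqln2 (-0.40 ± 0.10), a shuttle, fell.

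Of the 9 genes of the NRF1 route, 6 were higher and 2 lower. Nfe2l1 was at 95.3, 103.7, 97.2 and 95.5 CPM in Mac and 195.9, 195.9, 180.1 and 175.5 CPM in E-Mac. The groups did not overlap, and the log2 fold change was 0.93 ± 0.07 (adjusted p = 6.59e-08). Ddi2, the protease that cuts NRF1 into its active form, moved the other way, from 243.7, 221.0, 216.0 and 236.3 CPM in Mac to 82.1, 76.3, 82.9 and 75.5 CPM in E-Mac. All E-Mac libraries were below all Mac libraries (-1.53 ± 0.07, adjusted p = 7.64e-10), and 18.3% of its annotated exonic length overlaps Rsc1a1. Vcp, which extracts NRF1 from the endoplasmic reticulum, rose by 0.66 ± 0.08. The small MAF partner Mafk rose by 0.68 ± 0.20 and Ngly1, the deglycosylase of NRF1, fell by 0.31 on the log2 scale, both with groups that overlapped.

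Of the 16 genes of the interferon route, 11 were higher and 2 lower, with a median of 0.75. Irf1, a factor known to drive immunoproteasome genes, was at 106.6 to 112.7 CPM in Mac and 264.2 to 319.4 CPM in E-Mac (1.43 ± 0.07, adjusted p = 3.21e-09). Nlrc5, the class I transactivator, was at 122.1 to 135.6 and 311.8 to 359.2 CPM (1.43 ± 0.07, adjusted p = 1.98e-09). Neither overlapped between the groups. Socs1, a feedback inhibitor, rose most (3.04 ± 0.12), then Irf7 (2.59 ± 0.08) and Stat2 (1.46 ± 0.07). The receptor chain Ifngr1 (-0.60 ± 0.06) and the kinase Tyk2 (-0.58 ± 0.07) fell.

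Upstream of the proteasome, 9 of 14 genes of ubiquitin supply and delivery were higher and 1 lower. Ube2l6, which conjugates the ubiquitin-like ISG15, rose by 1.69 ± 0.11, Nploc4, a cofactor of Vcp, by 0.57 ± 0.07 and the ubiquitin-conjugating enzyme gene Ube2n by 0.56 ± 0.09, while Rps27a, a ubiquitin fusion gene with a ribosomal protein, had a log2 fold change of -0.33 ± 0.07. Downstream, 13 of 16 genes of peptide trimming and class I loading were higher and 0 lower, with a median of 0.89. Calr (1.55 ± 0.14) and Tapbp (1.51 ± 0.07), of the loading complex, rose most, together with the peptidase Thop1 (1.47 ± 0.20, from 4.01 ± 0.418 to 11.1 ± 2.87 CPM).

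**Figure D5:**
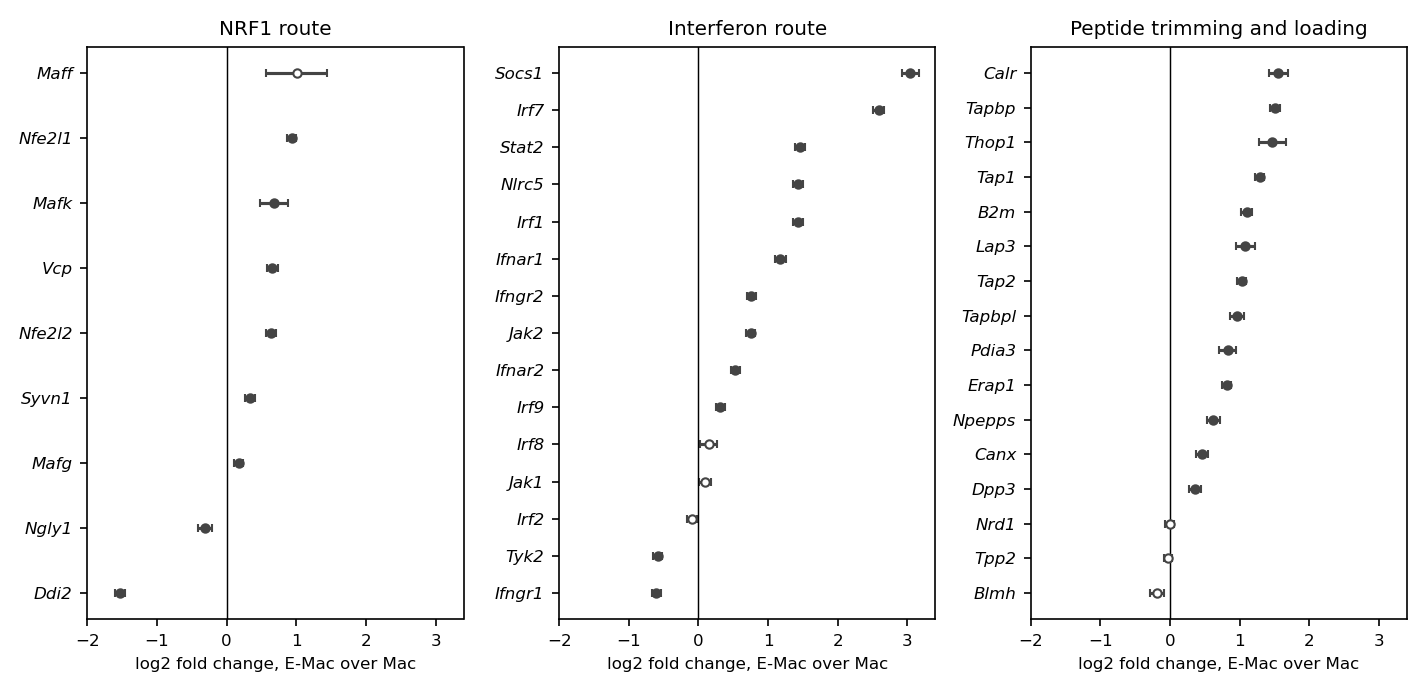
Log2 fold change (E-Mac over Mac) of the genes of the NRF1 route, the interferon route, and peptide trimming and loading, with bars for the standard error; filled points passed edgeR's test and open points did not; 1 gene of the interferon route is not drawn. The loading and interferon lists are mostly above 0, and Ddi2 is the lowest point, at -1.53.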

How the data were processed

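Raw counts per gene were deposited by the authors as 1 table for the 4 Mac and 4 E-Mac libraries. Per the submitters' processing notes, bcl2fastq, HISAT2, featureCounts of the Subread package and DESeq2 were used with genome build mm10; versions, annotation, strand setting and the treatment of reads mapping to several places were not given in the sources used here. Of 53673 rows, 26 whose symbols had become dates were left out. Genes were kept with edgeR's filterByExpr (minimum count 10, total 15), scaled with TMM factors and tested with edgeR 4.0.16 (glmQLFit, robust, and glmQLFTest, group only) in R 4.3.3 with limma 3.58.1; the adjusted p is Benjamini-Hochberg over all tested genes. Library totals were 11646025 to 15740846 counts, and within each group every pair of libraries differed beyond counting noise (lowest chi-square per degree of freedom 4.85). The steps were tested on simulated data in which few genes were changed, in either direction. That test does not bear on scaling where many genes change. Levels per length used the exon union of GENCODE M21, and overlaps and shared 50-base windows came from that annotation and its transcripts. Ratios were tested by exact permutation over libraries, with Python 3.11.15 and scipy 1.17.1.

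All members are named, and of each pathway list the 3 largest rises and the 3 largest falls among called genes, with Tap1, Irf1, Nlrc5, Nfe2l1, Pomp, Psmg1 and Adrm1 whatever their values. A gene that the rule also names is not reported here. The members follow from a rule on symbols, but that rule and the lists were chosen with earlier results of these data known. Alternatives were DESeq2 1.42.0, limma-voom, edgeR without the robust option, other scaling factors, no filter, a filter by CPM and the replicate block. The others were a stricter threshold, and leaving out each library or E-Mac 2 and 4 together.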

Additional observations from a re-analysis of the deposited data

Results flagged for a closer look

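In groups of 4 libraries, a value far from the other 3 was looked for in each tested member and set, 94 groups in all, and was found in 2; chance gives about 1 in 20 groups. Psmb1 was lowest in Mac 2, at 106.2 CPM, with the other Mac libraries at 116.3 to 117.4 CPM. Psmb6 was highest in Mac 2, at 61.0 CPM, with the others at 56.6 to 57.0 CPM. Both values lie below all E-Mac values of the same gene.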

How the results depend on the processing

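Over 19 alternatives the counts of members called in each set stayed within 1.5 times the main count, and 817 of 835 log2 fold changes of single members kept their direction and side of the threshold. The exceptions were of Psma7, Psma8, Psmd5 and Psmf1. Psma7 was -0.0097 (log2) with library size alone, Psma8 -0.0512 with upper-quartile factors and -0.10 with library size alone, and Psmd5 0.0066 with no filter and 0.0919 without E-Mac 2 and 4. Leaving out each library in turn gave 0.09 to 0.19 for Psma7, -0.29 to 0.63 for Psma8, -0.0551 to 0.0377 for Psmd5, and, for the log2 ratio differences, -0.052 to 0.0416 for Psmb8 to Psmb5, -0.34 to -0.17 for Psmb9 to Psmb6 and 0.55 to 0.69 for Psmb10 to Psmb7; the cause was not tested. Same-numbered libraries did not deviate together (correlations -0.11 to 0.03), which shows no pairing by number but cannot exclude one. With the replicate block 7458 genes were called, against 7814. In 4 pairs, an exact sign-flip test of the ratios could not go below p = 0.125. Genes under about 1 CPM, such as Psma8, allow no statement at this depth.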
